A study of Homo sapiens with 8 samples.

Results

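The genes described here encode the receptors for serotonin, noradrenaline and adrenaline, dopamine, acetylcholine (muscarinic type) and histamine that signal through G proteins. The 34 genes were taken from a list by symbol, grouped by transmitter, and all 34 were found among the 58233 genes of the table. Their RNA was compared between buds and bulks at stage 5 of a stepwise differentiation of HUES8, which is an established line of human embryonic stem cells. Buds are small structures that agitation loosened from spheroids of these cells and a filter then separated, and bulks are the large remainder. The 5 bulk libraries came from differentiation flasks 252, 261, 264, 270 and 274, and the 3 bud libraries came from flasks 264, 270 and 274. Every library is of the same unmodified line with no added treatment named in the labels, so the groups differ in the structure collected and the spread is between flasks of 1 line.

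All of these receptors cross the membrane several times and pass the signal to a heterotrimeric G protein inside the cell. Receptors coupled to Gi lower cyclic AMP, those coupled to Gs raise it, and those coupled to Gq activate phospholipase C and release calcium. In the pancreatic islet, nerve endings and the endocrine cells themselves supply these transmitters, and the receptors are known for adjusting hormone release: CHRM3 increases insulin secretion in response to acetylcholine, whereas ADRA2A and DRD2 restrain it.

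Receptor genes moved both ways between buds and bulks. Of those tested, both for acetylcholine, both for dopamine and 4 of 6 for serotonin were higher in buds, while 3 of the 5 genes for acetylcholine and 3 of the 5 for dopamine were too low to test. Of the 34 genes, 15 passed the expression filter and were tested. Of these, 9 were higher and 4 were lower in buds (edgeR's quasi-likelihood test, Benjamini-Hochberg adjusted p below 0.05), where 23.4% of the 16641 genes tested were higher and 23.8% lower. The 9 were HTR1A, HTR1E, HTR2A, HTR7, DRD1, DRD2, CHRM2, CHRM3 and HRH3, and the 4 were HTR1D, ADRA2A, ADRA2B and HRH2. HTR1B and ADRA2C were tested and did not pass. Buds lay wholly above bulks for 8 of the 15 and wholly below for 3, against 23.5% and 23.7% of all tested genes. The filter asked for about 10 counts (1.14 CPM, the count scaled to a common library size) in at least 3 libraries: HTR1A, HTR2A, HTR7, DRD1, CHRM2 and HRH3 met it through the buds alone and HTR1D and ADRA2B through the bulks alone, so these 8 could hardly have been tested without differing. With flask as a block, 9 were higher and 3 lower, against 19.5% and 20.3% of all genes, and the call lost was that of HTR1D. In bulk RNA, fewer cells of a type and less RNA per cell cannot be told apart.

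Library totals ran from 6083973 to 12508039 counts. Fixed marker lists showed what else moved between the groups. Of 9 markers of pancreatic endocrine cells 6 were higher in buds and none lower, and their summed level was 2170 to 8770 CPM in bulks and 12000 to 23000 CPM in buds. Of 12 neuron markers 11 were higher and none lower, and their summed level was 171 to 449 CPM in bulks and 1810 to 3000 CPM in buds. All 6 progenitor markers were lower, at 235 to 456 CPM in bulks and 60.6 to 96.4 CPM in buds. Of 7 markers of enterochromaffin-like cells, which make serotonin, 4 were higher (2 with flask as a block), at 81.2 to 264 CPM in bulks and 583 to 751 CPM in buds. DDC made up most of that sum in every library, at means of 99.1 CPM in bulks and 460 CPM in buds. SLC18A1, LMX1A and MME did not pass. Among 8 markers of neural crest and glia 4 were tested and 1, ERBB3, was lower (with flask as a block TFAP2A was higher). The sum of that list, 182 to 276 CPM in bulks and 29.2 to 89.9 CPM in buds, was nearly all ERBB3. Without ERBB3 the other 7 summed to 4.21 to 5.44 CPM in bulks and 5.53 to 8.27 CPM in buds, and SOX10 reached at most 1 count and FOXD3 at most 2. In the 9 genes of mesenchyme and smooth muscle 1 of 6 tested was higher (2 with flask as a block) and 3 were lower, at 29.3 to 77.8 CPM in bulks and 23.2 to 88.9 CPM in buds. Of 8 markers of endothelium, blood and mast cells only KIT was tested, and it was lower. The sum of that list, 55.4 to 82.9 CPM in bulks and 26.7 to 29.8 CPM in buds, was nearly all KIT, and the other 7 summed to 0.529 to 1.2 CPM in bulks and 1.61 to 2.56 CPM in buds. PTPRC reached at most 2 counts and CPA3 1. No listed marker was at 0 in all 8 libraries. The part of these cell types in the receptor differences was not tested.

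To show the start regions of genes that went in different directions, the 250 bases before the start are given for 3 genes that were higher in buds and 1 that was lower, 5′ to 3′ on the gene's strand (RefSeq, GRCh38.p14), with CG dinucleotides in capitals.
HTR1E, chr6:86937278-86937527, plus strand: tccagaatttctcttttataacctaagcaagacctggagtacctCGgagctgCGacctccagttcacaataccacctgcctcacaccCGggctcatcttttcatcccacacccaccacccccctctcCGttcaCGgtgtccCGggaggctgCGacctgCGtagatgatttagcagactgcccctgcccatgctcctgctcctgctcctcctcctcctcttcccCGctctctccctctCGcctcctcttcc
HTR2A, chr13:46897054-46897303, minus strand: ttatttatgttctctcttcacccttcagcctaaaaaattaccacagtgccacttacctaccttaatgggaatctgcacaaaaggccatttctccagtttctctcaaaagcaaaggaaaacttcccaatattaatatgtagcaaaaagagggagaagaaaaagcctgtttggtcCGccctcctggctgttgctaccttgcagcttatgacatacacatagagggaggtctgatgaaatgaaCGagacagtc
CHRM3, chr1:239386318-239386567, plus strand: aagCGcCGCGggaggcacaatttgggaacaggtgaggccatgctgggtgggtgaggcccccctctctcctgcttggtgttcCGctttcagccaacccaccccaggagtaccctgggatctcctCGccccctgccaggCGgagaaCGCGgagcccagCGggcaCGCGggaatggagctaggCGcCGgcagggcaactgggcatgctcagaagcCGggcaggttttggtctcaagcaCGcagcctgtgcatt
HRH2, chr5:175657821-175658070, plus strand: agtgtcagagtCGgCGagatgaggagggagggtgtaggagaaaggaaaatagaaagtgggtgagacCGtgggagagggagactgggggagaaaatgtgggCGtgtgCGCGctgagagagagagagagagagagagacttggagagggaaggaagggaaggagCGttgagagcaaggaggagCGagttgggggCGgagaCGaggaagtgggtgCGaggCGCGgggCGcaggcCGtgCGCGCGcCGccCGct
The HTR2A window holds 2 CG dinucleotides and that of HTR1E 10, while those of CHRM3 and HRH2 hold 15 and 20. A window could be matched for 27 of the 34 genes, taking the start nearest to that of the gene in GENCODE. Among the 7 genes higher in buds with a window the count ran from 2 to 41, with a median of 10, and among the 3 lower ones from 20 to 27, with a median of 22. The median over 35116 promoters of the same length was 11. Both strands were searched for CAGATG, the E-box bound by NEUROD1 and NEUROG3, which was in 12.2% of all promoters and in those of 5 of the 27 receptor genes, among them CHRM2 of the genes tested. TTCAGCACC, the left part of the REST site, and TGACGTCA, the cyclic AMP response element, were in 0.288% and 1.65% of all promoters and in none of the 27, and TAATTA, the homeodomain core, was in 4.35% and in CHRM5 of the 27.

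Among the serotonin receptors, HTR1E, a Gi-coupled receptor of neurons, rose in buds. It stood at 1.32, 0.531, 0.330, 3.39 and 2.24 CPM in the bulks of flasks 252, 261, 264, 270 and 274, in that order throughout, and at 14.4, 23.4 and 24.2 CPM in the buds of flasks 264, 270 and 274. Every bud was above every bulk, and the log2 fold change was 3.62 ± 0.48 (SE; edgeR adjusted p = 0.000158). HTR1A, a Gi-coupled autoreceptor of serotonin neurons, was at 0.132, 0.797, 0.165, 0.366 and 0.534 CPM in bulks and at 2.70, 2.64 and 2.89 CPM in buds. The 3 buds lay close together and above all bulks, and the difference was 2.71 ± 0.43 on the log2 scale (edgeR adjusted p = 0.000529).

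**Figure D1:**
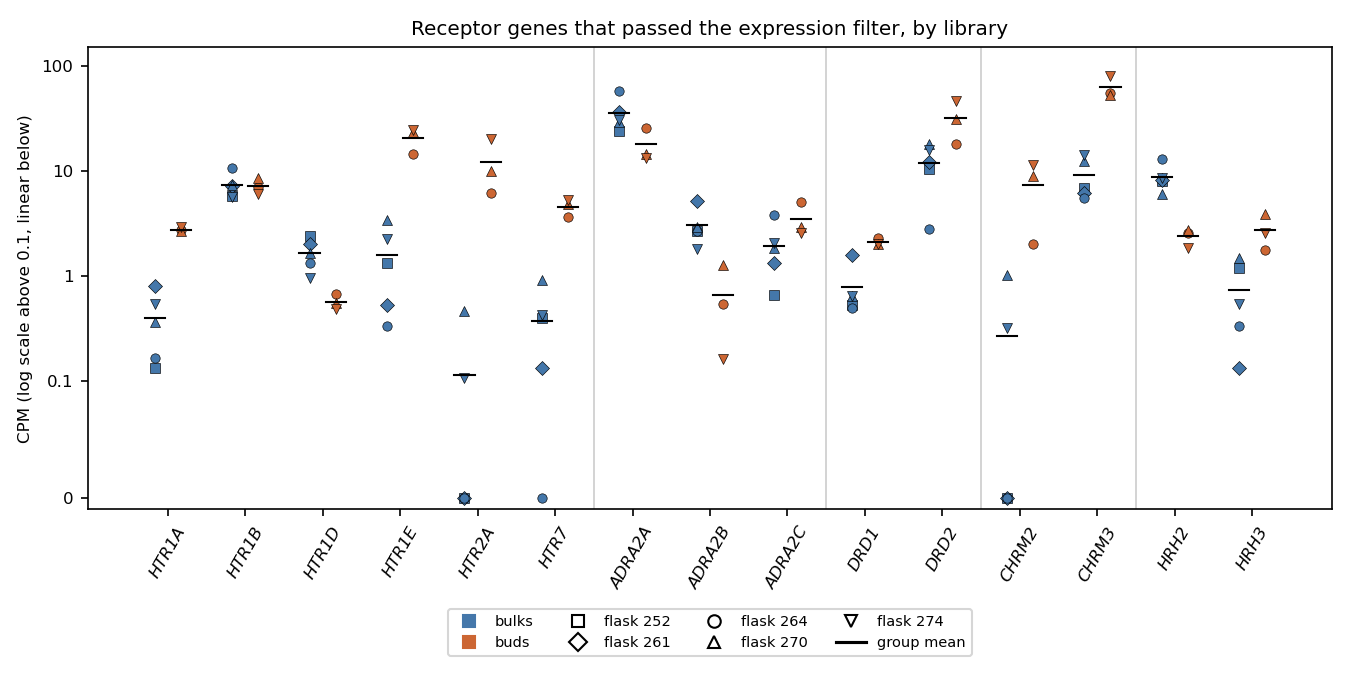
CPM of each receptor gene that passed the expression filter in every library, on an axis that is logarithmic above 0.1 and linear below; blue is bulks, orange is buds, the symbol gives the flask and the bar the group mean. HTR2A and CHRM2 were at 0 in 3 bulks, and CHRM3 was above 50 CPM in all 3 buds and below 15 CPM in all 5 bulks.

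The remaining tested genes of this Gi-coupled family, HTR1B and HTR1D, were not higher in buds. HTR1B, which restrains transmitter release from nerve endings, was at 5.68, 7.17, 10.5, 7.23 and 5.66 CPM in bulks and 7.01, 8.55 and 5.94 CPM in buds. The groups overlapped, and the log2 fold change was -0.01 ± 0.25 (edgeR adjusted p = 0.975), with the bud higher than the bulk in 2 of 3 flasks. HTR1D, a close relative of HTR1B, was at 2.38, 1.99, 1.32, 1.65 and 0.961 CPM in bulks and 0.674, 0.546 and 0.482 CPM in buds. All 3 buds were below all bulks, on 5 to 6 counts per bud library, and the log2 fold change was -1.55 ± 0.41 (edgeR adjusted p = 0.0106). That call was lost with flask as a block (-1.19, edgeR adjusted p = 0.0740) and without the bud of flask 274 (0.0543). HTR1F did not reach the filter and had 5 counts in its highest library.

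HTR2A, a Gq-coupled receptor known from cortex and platelets and as a target of psychedelic drugs, had the highest fold change of the tested receptors. It had no counts in the bulks of flasks 252, 261 and 264, and 5 and 1 counts, or 0.458 and 0.107 CPM, in those of 270 and 274. Buds held 45, 110 and 250 counts, or 6.07, 10 and 20.1 CPM. All 3 buds were far above all bulks, and the difference was 6.30 ± 0.67 on the log2 scale (edgeR adjusted p = 5.21e-05). Its size rests on the few counts in bulks: it was 8.02 without the bulk of flask 270 and 5.71 without the bud of flask 274. Its relatives HTR2B and HTR2C were below the filter, with 14 and 3 counts over the 5 bulks and 8 and 0 over the 3 buds.

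HTR7, a Gs-coupled receptor, was at 0.397, 0.133, 0, 0.916 and 0.427 CPM in bulks and at 3.64, 4.82 and 5.22 CPM in buds. Buds and bulks did not overlap, and the log2 fold change was 3.42 ± 0.52 (edgeR adjusted p = 0.000388), or 4.08 without the bulk of flask 270. The remaining serotonin receptors of the Gs and Gi groups were near the limit of detection: HTR4 had at most 4 counts in a library, HTR5A had 4 counts in the bud of flask 270 and none elsewhere, and HTR6 had 5, 5 and 6 counts in the buds and at most 2 in a bulk.

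Of the 3 adrenergic receptor genes that passed the expression filter, 2 were lower in buds and none was higher. Over all tested genes 23.8% were lower and 23.4% higher. ADRA2B met the filter through the bulks alone. ADRA2A, the Gi-coupled receptor through which adrenaline restrains insulin release, was at 23.7, 36.4, 57.0, 28.9 and 30.6 CPM in bulks and 25.6, 14.5 and 13.2 CPM in buds. The bud of flask 264 was above the bulk of flask 252, but within flasks every bud was lower, at 0.449, 0.5 and 0.432 times its own bulk in flasks 264, 270 and 274. The log2 fold change was -1.0 ± 0.31 (edgeR adjusted p = 0.0220), and -1.12 with an adjusted p of 0.00299 with flask as a block in edgeR. Leaving out the bud of flask 270 (adjusted p = 0.103 in edgeR) or of flask 274 (0.0947) ended the call.

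ADRA2B, of the same Gi-coupled type, was at 2.64, 5.18, 2.64, 2.93 and 1.81 CPM in bulks and 0.539, 1.27 and 0.161 CPM in buds. All buds were below all bulks, on 4, 14 and 2 counts, and the log2 fold change was -2.19 ± 0.57 (edgeR adjusted p = 0.00929), or -3.17 without the bud of flask 270. ADRA2C, the third receptor of this type, was at 0.661, 1.33, 3.79, 1.83 and 2.03 CPM in bulks and 4.99, 2.91 and 2.57 CPM in buds. The groups overlapped through the bulk of flask 264, and the log2 fold change was 0.85 ± 0.46 (edgeR adjusted p = 0.148). Without that bulk it was 1.2 and passed (edgeR adjusted p = 0.0311), while with flask as a block it was 0.47 (0.255).

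The Gq-coupled genes ADRA1A, ADRA1B and ADRA1D and the Gs-coupled gene ADRB1 were below the filter, and when tested without it ADRA1A, ADRA1B and ADRB1 were higher in buds (edgeR adjusted p = 0.00114, 0.00574 and 0.00211). ADRA1B had 6, 17 and 15 counts in buds and 1 to 4 in bulks. ADRA1A had 2, 9 and 11 counts in buds and 1 count over all bulks, and ADRA1D had 2, 3 and 6 in buds and at most 1 in a bulk. These receptors contract smooth muscle in blood vessels and other organs. ADRB1, the main receptor for noradrenaline in the heart, had 3, 3 and 10 counts in buds and none in any bulk, so that, with each bulk library set at 3 counts, buds were at least 1.31-fold higher. ADRB3, known from fat tissue, had no counts in any of the 8 libraries.

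Both dopamine receptor genes that were tested rose, where 23.4% of all tested genes were higher, and DRD1 met the expression filter through the buds alone. DRD2, a Gi-coupled receptor and the target of antipsychotic drugs, was at 10.4, 12.2, 2.80, 18.1 and 15.6 CPM in bulks and 18.1, 31.3 and 46.4 CPM in buds. The bud of flask 264 reached only the level of the bulk of flask 270, yet each bud was above its own bulk, by 6.45, 1.73 and 2.98 times in flasks 264, 270 and 274. The log2 fold change was 1.42 ± 0.44 (edgeR adjusted p = 0.0209), and leaving out the bud of flask 274 gave 1.05, which did not pass (adjusted p = 0.115 in edgeR).

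DRD1, the Gs-coupled receptor of the striatum, was at 0.529, 1.59, 0.494, 0.641 and 0.640 CPM in bulks and at 2.29, 2.0 and 2.01 CPM in buds. Buds were above all bulks, of which that of flask 261 stood apart from the other 4, and the log2 fold change was 1.41 ± 0.40 (edgeR adjusted p = 0.0145). DRD5, also Gs-coupled, had 9, 8 and 11 counts in buds and 1 to 5 in bulks, and DRD4, which is Gi-coupled, had 2 in each bud and 1 to 8 in bulks. Neither was tested, and DRD3 had no counts in any library.

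Both muscarinic receptor genes that were tested rose, and in neither did the groups overlap. Over all tested genes 23.4% were higher in buds, and in 23.5% buds lay wholly above bulks. CHRM2 met the expression filter through the buds alone. CHRM3, the Gq-coupled receptor of islet beta cells, exocrine glands and smooth muscle, was at 6.87, 6.11, 5.44, 12.4 and 14.2 CPM in bulks and 54.9, 52.7 and 78.7 CPM in buds. The lowest bud was above the highest bulk, each bud exceeded its own bulk by 10.1, 4.26 and 5.54 times in flasks 264, 270 and 274, and the log2 fold change was 2.76 ± 0.30 (edgeR adjusted p = 5.45e-05). CHRM2, the Gi-coupled receptor that slows the heart, had no counts in the bulks of flasks 252, 261 and 264 and 11 and 3 counts in those of 270 and 274, or 1.01 and 0.320 CPM. In buds it was at 2.02, 8.91 and 11.2 CPM, above every bulk. The log2 fold change was 4.49 ± 0.81 (edgeR adjusted p = 0.00110), or 6.07 without the bulk of flask 270 and 5.24 in limma-voom.

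The other muscarinic genes were low. CHRM4, which is Gi-coupled, had 17, 8 and 5 counts in the buds of flasks 264, 270 and 274 and 1 to 5 in bulks. CHRM5, which is Gq-coupled, had 6, 4 and 5 in buds and at most 1 in a bulk. CHRM1, a Gq-coupled receptor of the forebrain, went with neither group: it had 13 and 4 counts in the bulks of flasks 264 and 261, 5, 1 and 0 in buds and none in the other bulks.

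Of the histamine receptor genes tested, 1 fell and 1 rose, and the latter, HRH3, met the expression filter through the buds alone. HRH2, the Gs-coupled receptor that drives acid secretion in the stomach, was at 8.06, 8.10, 13, 5.95 and 8.54 CPM in bulks and 2.56, 2.73 and 1.85 CPM in buds. Every bud was below every bulk, at 0.197, 0.458 and 0.216 times its own bulk, and the log2 fold change was -1.87 ± 0.30 (edgeR adjusted p = 0.000539). HRH3, a Gi-coupled receptor that restrains histamine release from neurons, was at 1.19, 0.133, 0.330, 1.47 and 0.534 CPM in bulks and 1.75, 3.91 and 2.57 CPM in buds. Buds were above all bulks, and the difference was 1.84 ± 0.54 on the log2 scale (edgeR adjusted p = 0.0170). It was 1.54 and did not pass when the bud of flask 270 was left out (adjusted p = 0.0828). HRH1, which is Gq-coupled, had 17, 8 and 12 counts in buds and 2 to 7 in bulks and was not tested, and HRH4 had at most 1 count.

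**Figure D2:**
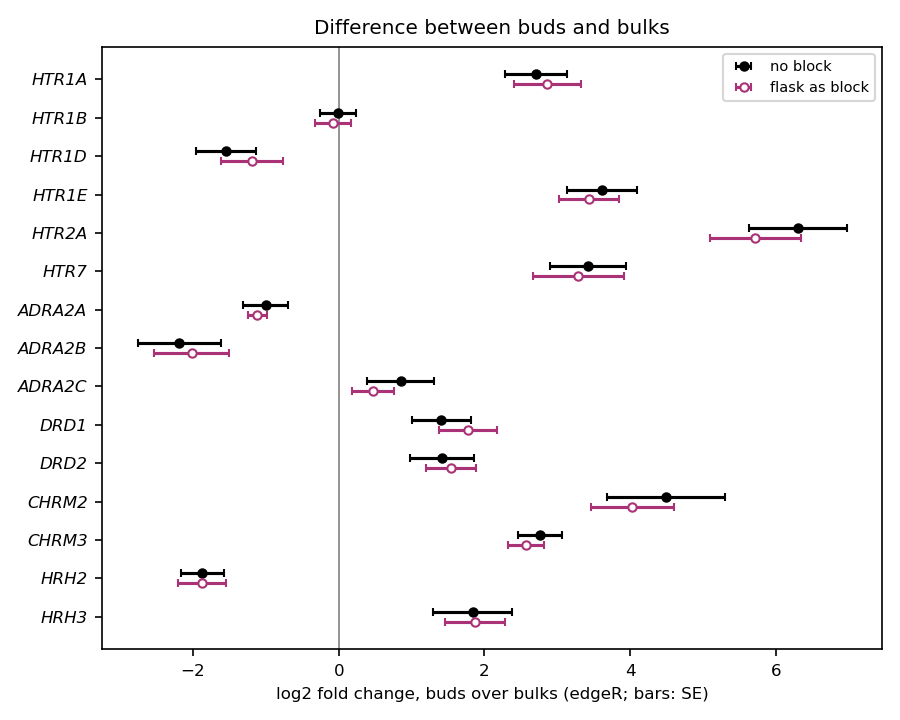
Log2 fold change of buds over bulks for the 15 receptor genes tested, with its standard error, from edgeR without a block (black) and with flask as a block (open). Directions are the same in both fits for all 15 genes, from 6.30 for HTR2A to -2.19 for ADRA2B without a block.

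Tested without the expression filter, which leaves genes of few counts in, 6 further receptor genes were higher in buds (edgeR adjusted p below 0.05): HTR6, ADRA1A, ADRA1B, ADRB1, CHRM4 and CHRM5. That made 15 of 32 higher and 4 lower, where 12.7% of the 33575 genes then tested were higher and 10.9% lower. None of the 6 reached 20 counts in any library.

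Summed by transmitter, the balance of receptor transcripts differed between the structures. The 5 muscarinic genes together were at 6.91 to 14.7 CPM in bulks and 60.7 to 90.6 CPM in buds. The 12 serotonin receptor genes were at 10.6 to 14.9 CPM in bulks and 36.3 to 59.7 CPM in buds. The 5 dopamine receptor genes were at 4.78 to 19.3 CPM in bulks and 21.8 to 49.4 CPM in buds. The 8 adrenergic genes were at 27.2 to 63.8 CPM in bulks and 19.3 to 32.9 CPM in buds, and these ranges overlapped. The 4 histamine receptor genes were at 8.06 to 14.2 CPM in bulks and 5.46 to 7.37 CPM in buds. In both groups most of the muscarinic sum was CHRM3, most of the dopamine sum DRD2 and most of the adrenergic sum ADRA2A. Their means in bulks and in buds were 9.0 and 62.1 CPM for CHRM3, 11.8 and 31.9 for DRD2, and 35.3 and 17.8 for ADRA2A. Per kilobase of exon, which allows the classes to be set beside each other, adrenergic genes were highest in every bulk, at 7.20 to 17.3 CPM per kilobase against 3.91 to 5.82 for serotonin receptor genes. In buds the serotonin receptor genes were highest, at 14.0 to 21.7 CPM per kilobase, against 5.65 to 12.2 for dopamine, 5.57 to 9.56 for adrenergic and 4.86 to 6.72 for muscarinic receptor genes. Most of that serotonin sum was HTR1E, at a mean of 11.3 CPM per kilobase. With the longest transcript as the length, CHRM3 moved from 4.09 to 6.76 and DRD2 from 7.75 to 11.4 CPM per kilobase in buds. The muscarinic and dopamine sums therefore depend on the length used.

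**Figure D3:**
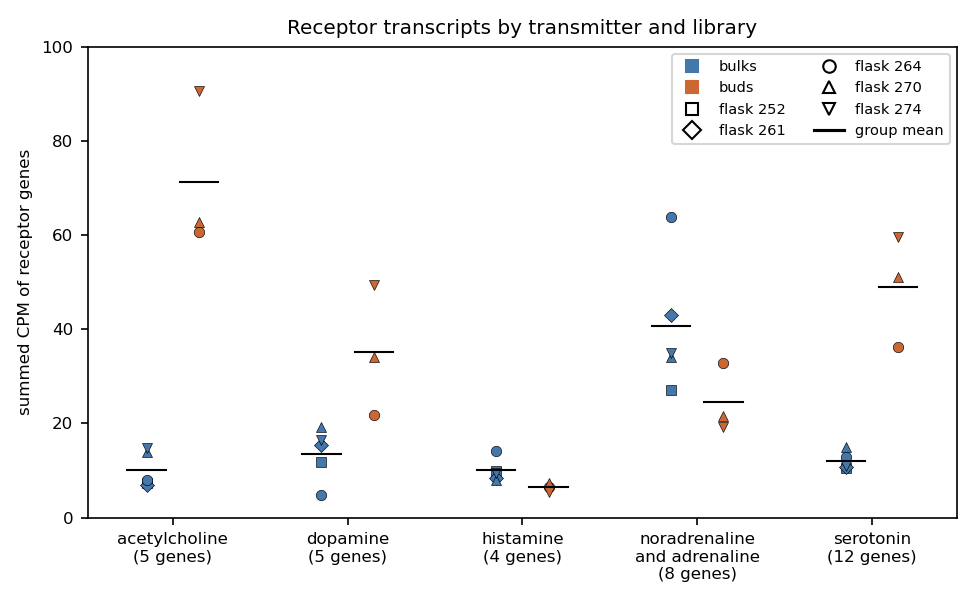
Summed CPM of the receptor genes of each transmitter in every library, with bulks in blue, buds in orange, a symbol for each flask and a bar at the group mean. Muscarinic, serotonin and dopamine receptor sums were higher in every bud than in any bulk, at mean values of 71.4, 49.1 and 35.2 CPM in buds and 10.1, 12.0 and 13.6 CPM in bulks.

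Receptors were also grouped by the G protein that each mainly uses. The 10 Gq-coupled genes summed to 10.9 ± 3.90 CPM in bulks (SD, n = 5) and 78.7 ± 21.1 CPM in buds (SD, n = 3). Most of this sum was CHRM3, which averaged 9.0 CPM over the bulks and 62.1 CPM over the buds. Only 2 of the 10, CHRM3 and HTR2A, were tested. Both were higher, and HTR2A met the expression filter through the buds alone. The sum therefore does not show a rise of the Gq-coupled genes in general. The 16 Gi-coupled genes summed to 65.0 ± 11.3 CPM in bulks and 96.9 ± 14.8 CPM in buds. Among them 10 were tested, and 5 were higher and 3 lower, against 23.4% and 23.8% of all tested genes. Among those called, HTR1A, CHRM2 and HRH3 met the expression filter through the buds alone and HTR1D and ADRA2B through the bulks alone. The 8 Gs-coupled genes summed to 10.4 ± 2.28 CPM in bulks and 11.1 ± 0.0957 CPM in buds. Only 3 were tested, with HTR7 and DRD1 higher and HRH2 lower, and HTR7 and DRD1 met the filter through the buds alone.

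Levels of different genes were compared as CPM per kilobase of exon. In bulks ADRA2A stood first, at 9.11 ± 3.34 CPM per kilobase (SD, n = 5), and its lowest bulk (6.10) was above the highest bulk of the next gene, DRD2 (4.40). DRD2 at 2.87 ± 1.42, HTR1B at 2.83 ± 0.775 and HRH2 at 1.54 ± 0.458 followed, each with a range that overlapped the next. In buds HTR1E stood first at 11.3 ± 2.96 CPM per kilobase (SD, n = 3), then DRD2 at 7.75 ± 3.44, ADRA2A at 4.58 ± 1.76 and CHRM3 at 4.09 ± 0.950. Their ranges overlapped from one to the next, and CHRM3 (lowest bud 3.47) was above HTR1B (highest bud 3.33). With the longest transcript as the length, DRD2 (11.4) passed HTR1E and CHRM3 (6.76) passed ADRA2A in buds. HTR2A, with the largest fold change, was sixth in buds at 2.14 ± 1.28 and last in bulks at 0.0201 ± 0.0352 CPM per kilobase.

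**Figure D4:**
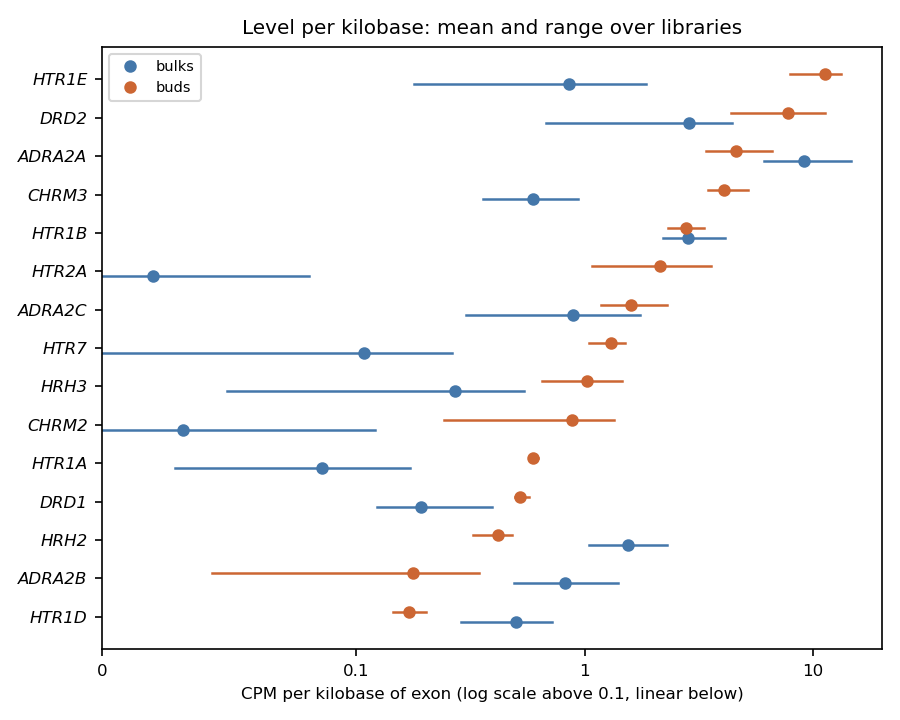
CPM per kilobase of merged exons for the tested receptor genes, ordered by their mean in buds, on an axis that is logarithmic above 0.1 and linear below; points are group means and lines run from the lowest to the highest library. ADRA2A was the highest receptor gene in bulks and HTR1E in buds.

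The bulks also differed among themselves. HTR2A and CHRM2 were detected only in the bulks of flasks 270 and 274, on 5 and 1 counts for HTR2A and 11 and 3 for CHRM2. These bulk libraries also had the largest totals, 10626052 and 9249475 counts, so low counts were easier to detect in them. The same bulks were highest in CPM for CHRM3, HTR1E and DRD2. Other genes that were higher in buds had another order: HTR1A and DRD1 were highest in the bulk of flask 261, at 0.797 and 1.59 CPM, and HRH3 in those of 270 and 252, at 1.47 and 1.19 CPM. The summed neuron markers were 449 and 297 CPM in the bulks of flasks 270 and 274 and 171, 226 and 195 CPM in those of 252, 261 and 264, and the summed markers of enterochromaffin-like cells were 264 and 252 against 154, 123 and 81.2 CPM. The sum of the endocrine markers did not set these bulks apart, at 8770 and 4980 CPM in flasks 270 and 274 and 4160, 6960 and 2170 CPM in 252, 261 and 264. Of its members, however, CHGB, SCG2, PAX6, NEUROD1 and ISL1 were each highest in the bulks of flasks 270 and 274. CHGA, INS, GCG and SST were not, as each was higher in the bulk of flask 261 than in that of 274. The bulk of flask 264 was lowest for DRD2 and HTR1E and highest for ADRA2A, ADRA2C, HRH2 and HTR1B, and had the lowest sum of endocrine markers and the highest of progenitor markers, 456 CPM. The part of these markers in the receptor levels of the bulks was not tested.

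The coding sequence lies in a single exon in 17 of the 34 genes (GENCODE release 44), among them 5 of those higher in buds and 3 of those lower. Reads of unspliced RNA or DNA that fall within such a coding sequence cannot be told from mRNA. Chromosome 5 holds 5 of the genes. On it DRD1 (175440036 to 175444182, GRCh38), which rose, and HRH2 (175658030 to 175710756), which fell, lie 213847 bases apart with opposite orientation. Among the genes called, exons of CHRM3 (chromosome 1, 239386565 to 239915452) overlap the antisense RNA CHRM3-AS2 over 269 bases and those of HTR1A (chromosome 5, 63957874 to 63962507) a long non-coding RNA on the same strand over 123 bases. Whether strand was used in counting is not given in the sources used here, so reads there could belong to either gene. Exons of HTR2B, HTR5A, CHRM1, CHRM4 and CHRM5, all at low counts, also overlap another gene. Those of ADRB3, which had no counts, overlap a protein-coding gene on the same strand over 689 bases, and reads there could belong to either gene.

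Genes that supply and remove the transmitters were also examined, from a list of 23 for synthesis, vesicle loading, uptake and breakdown. Of 19 tested, 9 were higher and 1 lower in buds, where 23.4% of all tested genes were higher and 23.8% lower, and the median log2 fold change was 0.98, against -0.02 over all genes tested. Of the genes called, SLC18A3, SLC5A7, MAOB and BCHE met the expression filter through the buds alone and HNMT through the bulks alone. Such genes could hardly have been tested without differing. With flask as a block 8 of the listed genes were higher and 0 lower, and the calls lost were those of HNMT and of TPH1, which makes serotonin (edgeR adjusted p = 0.173 for TPH1). SLC18A3, which loads acetylcholine into vesicles, averaged 0.952 ± 0.488 CPM over the 5 bulks and 20.5 ± 11.2 CPM over the 3 buds (SD). It rose by 4.34 ± 0.42 on the log2 scale (SE; edgeR adjusted p = 3.18e-05). For it and the genes that follow, rises and falls are log2 fold changes with their SE and levels are CPM with their SD. SLC5A7, the choline transporter, rose by 3.96 ± 0.50 (edgeR adjusted p = 0.000117) from 0.989 ± 0.323 to 15.3 ± 9.75 CPM. In both genes the bud of flask 264 was the lowest of the buds and above every bulk. HNMT, which inactivates histamine, fell by 2.20 ± 0.61 on the log2 scale (edgeR adjusted p = 0.0130), from 1.58 ± 0.642 to 0.329 ± 0.283 CPM, and did not pass with flask as a block (edgeR adjusted p = 0.0986). CHAT and HDC, the enzymes that make acetylcholine and histamine, were below the filter with at most 12 and 4 counts in a library.

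**Figure D5:**
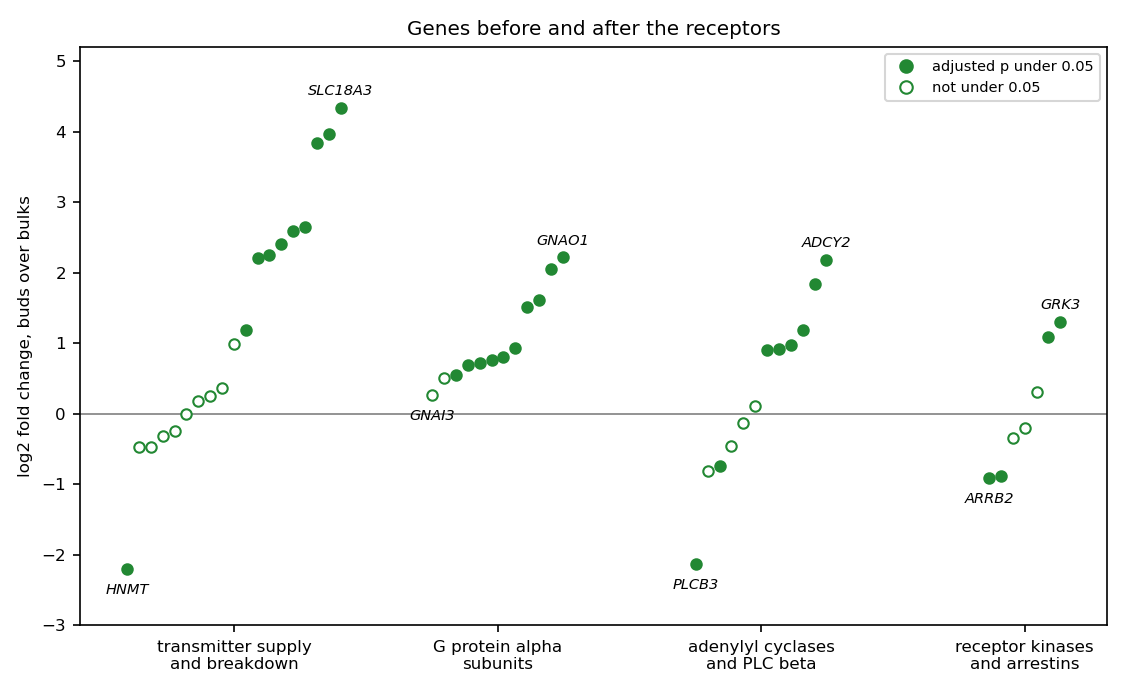
Log2 fold change of buds over bulks for each tested gene of the lists for transmitter supply and breakdown, G protein alpha subunits, adenylyl cyclases with phospholipase C beta, and receptor kinases with arrestins; filled points passed the test and the lowest and highest gene of each list are named. Most G protein alpha subunits were higher, while PLCB3 and HNMT fell furthest.

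G protein alpha subunits were higher in buds in 10 of 12 tested cases and lower in none, against the same 23.4% and 23.8% of all genes, with a median log2 fold change of 0.78. GNAO1, the Go subunit of neurons and endocrine cells, rose by 2.22 ± 0.31 (edgeR adjusted p = 0.000233) from 29.9 ± 13.9 to 141 ± 8.77 CPM. GNAL, the subunit that couples DRD1 to adenylyl cyclase in the striatum, rose by 2.05 ± 0.29 (edgeR adjusted p = 0.000234) from 6.34 ± 0.933 to 26.2 ± 12.0 CPM. Buds were above all bulks for both.

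The enzymes downstream went both ways. Of 12 tested adenylyl cyclases and phospholipase C beta genes 6 were higher and 2 lower, against 23.4% and 23.8% of all genes, with a median log2 fold change of 0.50. With flask as a block 4 were higher and 3 lower: ADCY8 and PLCB4 did not pass (edgeR adjusted p = 0.130 and 0.133), and PLCB1 was lower (0.0189). ADCY2 rose by 2.18 ± 0.18 (edgeR adjusted p = 1.8e-05) and ADCY1 by 1.84 ± 0.25 (0.000213). PLCB3, a phospholipase activated by Gq, fell by 2.14 ± 0.19 (edgeR adjusted p = 2.17e-05) from 34.3 ± 5.84 to 7.79 ± 0.776 CPM, and ADCY6 fell by 0.75 ± 0.15 (0.00228). Of the 7 receptor kinases and arrestins, which silence active receptors, 2 were higher and 2 lower, with a median log2 fold change of -0.21, which is near the share called over all genes (23.4% higher and 23.8% lower). GRK3 rose by 1.30 ± 0.19 (edgeR adjusted p = 0.000352) and GRK4 by 1.08 ± 0.19 (0.000833), while ARRB2 fell by 0.91 ± 0.18 (0.00159) and GRK5 by 0.88 ± 0.32 (0.0433), with overlapping groups for GRK5 only.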

How the data were processed

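RNA was measured by paired-end sequencing of polyadenylated RNA from 3 bud and 5 bulk libraries, 1 per flask and structure. The authors deposited expected counts for each Ensembl gene. Per the submitters' processing notes they used STAR and RSEM on GRCh38. The sources used here do not give versions, annotation or strand setting. Of the deposited values 11.5% were not whole. Counts were rounded. Symbols, coordinates and lengths came from GENCODE release 44, by Ensembl identifier (57392 of 58233 genes).

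Buds and bulks were compared with edgeR 4.0.16 (R 4.3.3): TMM factors, the default filter by group (minimum count 10, total 15), the quasi-likelihood test, and adjustment over all genes by Benjamini-Hochberg, with a threshold of 0.05. CPM uses TMM-scaled library sizes. A count of 3 equals 0.241 to 0.494 CPM. Such floors reflect counting error alone. The flasks are separate cultures by their labels. Deviations of buds and bulks of 1 flask from their group means correlated at 0.123, 0.134 and 0.295, each above 0.1. Pairs from different flasks ran from -0.245 to 0.194, so some of them also exceeded 0.1 and the correlation alone does not establish the pairing. Flask was taken to pair buds and bulks by the labels and was also fitted as a block. Alternatives were DESeq2 1.42.0, limma-voom (limma 3.58.1), other scalings and filters, and leaving out each library. No pair of libraries within a group matched within sampling noise (lowest chi-square per gene 8.58).

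The test was also tested on simulated data.

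Members, lists and tests were chosen with earlier results of these data known. Values in every library are printed for receptor genes that passed the filter or had at least 20 counts in a library, and from each pathway list the 2 largest rises and 2 largest falls past the threshold are named.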

Additional observations from a re-analysis of the deposited data

Results flagged for a closer look

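The bulks of each of the 15 receptor genes shown by library were examined for a library far from the other 4, by its gap to the nearest other as a share of the range. A share over 0.71 arises by chance in roughly 1 group of 20. HTR2A in the bulk of flask 270 stood at 0.458 CPM, with the next bulk at 0.107 and the rest at 0 (gap over range 0.767). DRD1 in the bulk of flask 261 stood at 1.59 CPM, with the other bulks at 0.494 to 0.641 (gap over range 0.867).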

How the results depend on the processing

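Of the 13 receptor genes called, 9 kept their direction and passed under each of the 16 alternatives in which they were tested, and HTR1D, ADRA2A, DRD2 and HRH3 did not, under the settings given with each gene. The count of receptor genes higher in buds was 9, and 15 with no filter on low counts and 4 with the stricter filter (at least 5 CPM in 3 libraries), which left fewer receptor genes tested. The count lower was 4, and 2 with the stricter filter. Leaving out 1 library at a time, the counts ran from 8 to 10 higher and from 2 to 4 lower, the 2 being without the bud of flask 274. With flask as a replicate block 9 were higher and 3 lower, with all 8 libraries and with the 3 paired flasks alone. HTR1D did not pass with all 8 libraries and was not tested with the 3 paired flasks alone. The block changed no other receptor call. HTR1B, at -0.01, changed sign to 0.01 (RLE, DESeq2), 0.02 (limma-voom, no filter), 0.03 (unscaled libraries), and 0.00, 0.12 and 0.15 without the bud of flask 264, the bud of 274 and the bulk of 264, never passing; leaving out 1 library at a time it ran from -0.12 to 0.15. Receptor genes that were below the filter and did not pass when tested without it can be neither called nor called unchanged at this depth.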
